A study of Mus musculus with 21 samples.

Results

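The expression of 10 genes that mark the primed epiblast and the primitive streak of the early mouse embryo (Fgf5, Fgf8, Otx2, Lefty1, Nodal, Cer1, T, Eomes, Mixl1 and Mesp1) was followed through an in vitro route from pluripotent stem cells to blood. The rows were taken by gene symbol. All 10 were found among the 27968 genes of the sorted-cell table and all 10 among the 22899 genes of the coculture table. Values were FPKM, a read count scaled by transcript length and library size, so that levels could be compared between genes.

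There were 7 groups of 3 replicate libraries, 21 in all. The mESC group held mouse embryonic stem cells, by the labels of the 129/ola strain, grown on feeder cells and sorted with an antibody to SSEA-1. The same labelled strain gave 4 groups from day 5 of the induction. Colonies formed over 6 to 8 days from embryoid bodies in a three-dimensional peptide gel had been reseeded with SCF, IL-3 and Flt3 ligand, either on OP9, a bone marrow stromal line stopped from dividing with mitomycin C (3D+OP9), or on a coating of 0.1% gelatin with no stroma (3D+0.1%gel). Total cells were sequenced from both. From 3D+OP9, cells low in lineage markers and positive for Sca-1 and c-Kit (LSK) were sorted by CD201, the product of Procr, into D5-LSKCD201+ and D5-LSKCD201-. The last pair of groups were LSKCD201+ cells from C57BL/6 mice, from fetal liver of E12.5 embryos (FL-LSKCD201+) and from bone marrow at 6 to 8 weeks (BM-LSKCD201+). The study's methods name stem cells of both strains. By the labels, strain followed the origin of the cells, and the contribution of each to a difference from FL or BM cannot be told apart. The study describes the values of the day 5 LSK groups as coming from independent experiments and calls the sorted-cell replicates biological. Where separate cultures or animals are not stated for the libraries, p-values measure only the spread between these libraries, which may be technical. Depth is unknown because only FPKM were used. The coculture and sorted-cell tables were normalized separately and no test was run across them.

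In the embryo, naive pluripotent cells become the primed epiblast, which turns on Otx2, Fgf5 and Nodal. Nodal signals through activin receptors, the co-receptor cripto (Tdgf1) and SMAD2/3 with FOXH1, and induces its own inhibitors Lefty1, Lefty2 and Cer1. Together with WNT it starts the primitive streak, where T, Eomes, Mixl1 and Mesp1 are switched on in the cells that leave the epiblast as mesoderm and endoderm. Blood and endothelium arise from streak mesoderm, and most of these genes are switched off as mesoderm matures.

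The genes lie on 9 chromosomes of GRCm38. The deposited positions are Fgf5 at chr5:98254184-98277030 (+), Fgf8 at chr19:45736798-45742915 (-), Otx2 at chr14:48657679-48667644 (-), Nodal at chr10:61417972-61425338 (+), Cer1 at chr4:82881751-82885148 (-), T at chr17:8434423-8442496 (+), Eomes at chr9:118478212-118489099 (+) and Mesp1 at chr7:79792241-79793788 (-). Lefty1 at chr1:180935022-180938400 (+) and Mixl1 at chr1:180693043-180697034 (-) share chromosome 1 with Lefty2 at chr1:180893108-180899103 (+), the near copy of Lefty1. All are protein-coding genes. Over the 1607 aligned bases of a global alignment, the Lefty1 and Lefty2 transcripts were 84.2% identical, and 11.2% of the 75-base windows of Lefty1 were found unchanged in Lefty2. None of its 150-base windows, the length of the study's reads, was shared. Lefty2 was followed beside Lefty1.

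Because Nodal, its inhibitor Cer1 and the streak factors T, Eomes and Mesp1 moved together between the sorted day 5 groups, their promoters are shown. RefSeq promoter sequences on GRCm38.p6 were at hand for 7 of the 10 genes (not for Fgf8, Lefty1 and Mixl1). The 250 bases before the transcription start are printed 5′ to 3′ on the strand of the gene, and capitals mark matches, on either strand, to AATNNACA (FOXH1), CAGACA (SMAD), TCACAC (T-box) or CTTTGA (TCF/LEF).
T, chr17:8434173-8434422 (+): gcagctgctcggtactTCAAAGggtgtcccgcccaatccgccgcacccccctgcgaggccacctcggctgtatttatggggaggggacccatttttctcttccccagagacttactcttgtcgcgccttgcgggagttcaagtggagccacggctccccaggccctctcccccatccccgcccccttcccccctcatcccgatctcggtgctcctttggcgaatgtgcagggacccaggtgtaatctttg
Mesp1, chr7:79793591-79793840 (-): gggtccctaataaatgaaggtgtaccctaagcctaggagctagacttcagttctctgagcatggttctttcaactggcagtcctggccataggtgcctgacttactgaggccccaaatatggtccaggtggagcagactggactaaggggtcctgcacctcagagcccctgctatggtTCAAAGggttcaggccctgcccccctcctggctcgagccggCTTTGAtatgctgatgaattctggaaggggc
Cer1, chr4:82885152-82885401 (-): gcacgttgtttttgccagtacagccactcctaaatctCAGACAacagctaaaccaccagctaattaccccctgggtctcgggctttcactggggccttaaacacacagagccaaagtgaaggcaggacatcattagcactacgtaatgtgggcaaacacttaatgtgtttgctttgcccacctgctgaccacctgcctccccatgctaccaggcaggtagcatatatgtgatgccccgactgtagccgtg
Eomes, chr9:118477939-118478188 (+): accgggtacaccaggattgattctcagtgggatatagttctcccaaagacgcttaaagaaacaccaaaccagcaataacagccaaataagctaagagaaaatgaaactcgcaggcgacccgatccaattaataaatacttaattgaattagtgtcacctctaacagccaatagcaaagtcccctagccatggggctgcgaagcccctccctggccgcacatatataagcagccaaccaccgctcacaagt
Nodal, chr10:61417722-61417971 (+): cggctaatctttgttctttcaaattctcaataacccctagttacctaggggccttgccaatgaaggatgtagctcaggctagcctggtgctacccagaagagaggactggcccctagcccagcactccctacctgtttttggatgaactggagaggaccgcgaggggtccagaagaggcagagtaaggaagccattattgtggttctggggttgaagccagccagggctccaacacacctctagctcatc

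T carried 1 TCF/LEF match, 234 bases before its RefSeq start, and Mesp1 carried 2, at 72 and 31 bases before its own. That RefSeq start of Mesp1 lies inside the deposited gene position given above. By the deposited position both matches, and most of the window, fall within the gene. Of all 32851 RefSeq promoter windows of that length, 13.8% held such a match. Cer1 had 1 SMAD match at 213 bases, and 17.1% of windows had one. The windows of Eomes and Nodal held none of these 4 sets of letters. Among the promoters not printed, Fgf5 had a T-box match 82 bases before its start (12.3% of windows) and Otx2 a FOXH1 match at 105 bases from its first start (10.9%). Such matches describe the letters of the windows, not bound sites.

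Across the sorted cells the 10 genes were high in D5-LSKCD201- and low in every other differentiated group. Their summed level was 392 to 416 FPKM in the mESC libraries, where Lefty1 made up most of it. It was 632 to 660 FPKM in D5-LSKCD201-, 8.0 to 10.5 FPKM in D5-LSKCD201+, 2.65 to 3.84 FPKM in FL-LSKCD201+ and 5.03 to 6.14 FPKM in BM-LSKCD201+. In bulk RNA, fewer cells that express a gene and less RNA per cell cannot be told apart. Some libraries stood apart from the others of their group. In D5-LSKCD201-, replicates 1 and 3 were 19.4 apart (Euclidean distance of log2 values over all genes) while replicate 2 was 50.1 and 51.5 from them. In 3D+OP9, replicates 1 and 2 were 19.2 apart and replicate 3 was 47.7 and 48.9 from them. Replicate 1 likewise stood apart in FL-LSKCD201+ and BM-LSKCD201+. The sort marker Procr averaged 59.7 FPKM (SD 2.03, n = 3) in the CD201+ cells of day 5 and 3.48 FPKM (SD 0.411, n = 3) in the CD201- cells. Ptprc, which encodes the pan-leukocyte marker CD45, averaged 0.409 and 0.633 FPKM in those groups, against 43.5 in FL-LSKCD201+ and 66.8 in BM-LSKCD201+.

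**Figure D1:**
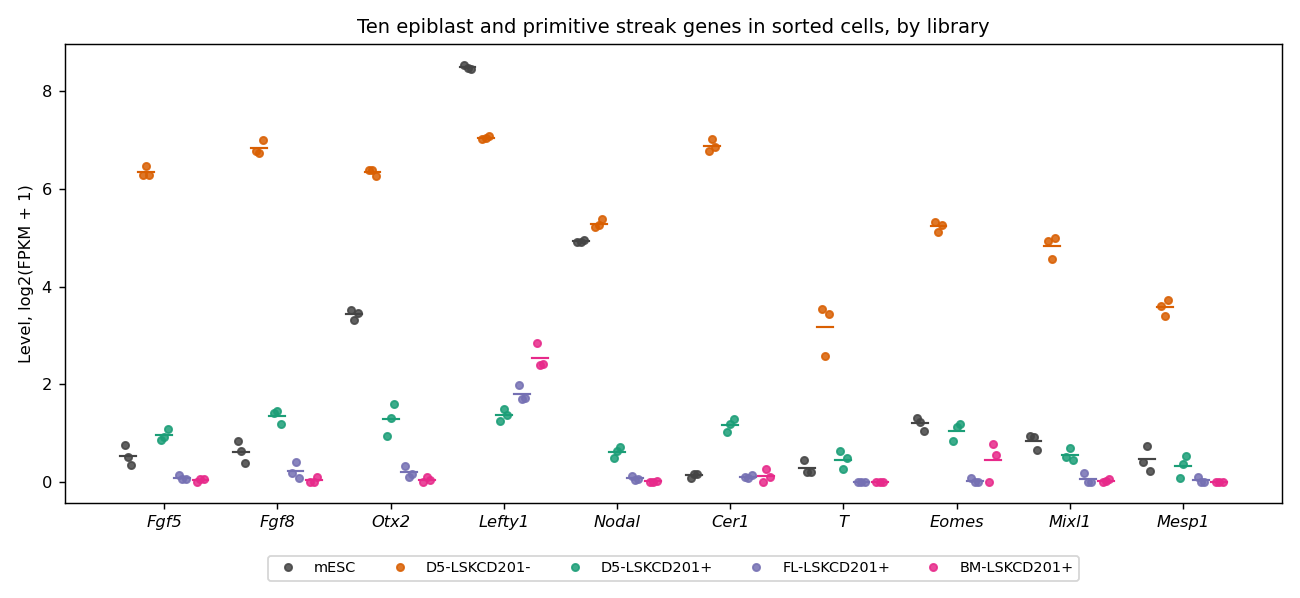
Level of each gene as log2(FPKM + 1) in the 15 sorted-cell libraries, 3 points per group, with the group mean as a line. The D5-LSKCD201- points lie above those of D5-LSKCD201+, FL-LSKCD201+ and BM-LSKCD201+ for all 10 genes, while mESC are highest for Lefty1.

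The change from stem cells to D5-LSKCD201- was tested with limma on log2(FPKM + 1), a scale on which the fold change of weakly expressed genes is understated, with the Benjamini-Hochberg adjustment across the genes tested. Calls of higher or lower needed an adjusted p below 0.05 together with a log2 fold change of at least 1 in size. Relative to mESC, D5-LSKCD201- expressed 8 of the 10 genes at a higher level, where 10.9% of the 13596 genes tested were higher. Lefty1 was lower (3.48% of all genes were), and Nodal stayed under the fold threshold. The replicates of the 10 genes did not overlap between the groups, as for 64.4% of all genes. All 10 passed the filter of a mean of 0.5 FPKM over the 6 libraries compared. The genes near absent from mESC passed through their D5-LSKCD201- values, so the count and the median are descriptions. The median log2 fold change of the 10 genes was 3.56, and that of all genes 0.05.

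The FGF ligand genes Fgf5 and Fgf8 went from near absence to high levels. Fgf5, the classic ligand gene of the primed state, was at 0.676, 0.418 and 0.277 FPKM in the mESC libraries and at 77.2, 87.6 and 76.6 FPKM in D5-LSKCD201-. The groups were far apart, with a log2 fold change of 5.81 ± 0.12 (SE). Fgf8, the ligand that cells need to leave the streak, was at 0.776, 0.547 and 0.308 FPKM in mESC and reached 109, 106 and 126 FPKM (6.22 ± 0.13). Otx2, the homeobox gene that drives exit from the naive state, started higher, at 10.5, 9.01 and 10.02 FPKM in mESC, and reached 82.6, 83.0 and 75.9 FPKM in D5-LSKCD201-. Its log2 fold change was 2.91 ± 0.08, and the libraries of both groups did not overlap.

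Nodal and its inhibitors did not move as one. Nodal itself, the ligand, was at 29.1, 29.1 and 29.8 FPKM in mESC and 36.4, 37.2 and 40.5 FPKM in D5-LSKCD201-. Every D5-LSKCD201- library was above every mESC library, but the log2 fold change was only 0.36 ± 0.06 (limma adjusted p = 0.00236). Lefty1, a secreted inhibitor that blocks Nodal and its co-receptor, was at 372, 356 and 350 FPKM in mESC and 128, 131 and 135 FPKM in D5-LSKCD201- (-1.45 ± 0.05). Its copy Lefty2 took the same course, from 231, 222 and 213 FPKM to 83.4, 103 and 78.4 FPKM (log2 fold change -1.33 ± 0.10). Cer1, which binds and blocks Nodal and BMP and is made by the anterior visceral endoderm and the early definitive endoderm, went the other way. It was at 0.0615, 0.114 and 0.116 FPKM in mESC and at 108, 129 and 115 FPKM in D5-LSKCD201-. With 6.75 ± 0.09, its log2 fold change was the highest of the 10 genes.

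The transcription factors of the streak were higher in D5-LSKCD201-, to unequal levels. Eomes, a T-box factor needed for definitive endoderm and cardiac mesoderm, rose from 1.49, 1.34 and 1.07 FPKM in mESC to 38.7, 33.7 and 37.6 FPKM (log2 fold change 4.04 ± 0.11). Mixl1, a homeobox gene of streak mesendoderm, was at 0.925, 0.877 and 0.579 FPKM in mESC and 29.6, 22.8 and 31.1 FPKM in D5-LSKCD201- (4.0 ± 0.14). Mesp1, the bHLH factor of the earliest cardiovascular mesoderm, was at 0.323, 0.673 and 0.169 FPKM in mESC and 11.1, 9.57 and 12.1 FPKM in D5-LSKCD201- (3.12 ± 0.16). T encodes brachyury, the T-box factor of the whole streak. It was at 0.364, 0.154 and 0.142 FPKM in mESC and 10.6, 4.93 and 9.77 FPKM in D5-LSKCD201- (2.89 ± 0.25). Its lowest D5-LSKCD201- value came from replicate 2, the library that stood apart. Without it the log2 fold change was 3.20.

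By level, the order of the means in D5-LSKCD201- was Lefty1, Cer1, Fgf8, Otx2, Fgf5, Nodal, Eomes, Mixl1, Mesp1 and T. Replicates overlapped between the neighbours Lefty1 and Cer1, Cer1 and Fgf8, Otx2 and Fgf5, Nodal and Eomes, and Mesp1 and T. The other neighbours did not overlap. These were Fgf8 (114 ± 11.2 FPKM) and Otx2 (80.5 ± 3.99), Fgf5 (80.5 ± 6.16) and Nodal (38.0 ± 2.15), Eomes (36.7 ± 2.65) and Mixl1 (27.8 ± 4.41), and Mixl1 and Mesp1 (10.9 ± 1.29), as mean ± SD with n = 3.

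Other genes of the same pathways were counted with them. Of 20 tested genes of the Nodal pathway, D5-LSKCD201- had 4 higher and 6 lower than mESC. Cfc1, the second co-receptor of Nodal (cryptic), was higher by a log2 fold change of 5.38, from 0.106 to 45.0 FPKM, and Fst, the activin antagonist follistatin, by 3.59. Tdgf1, in contrast, was at 255 FPKM in D5-LSKCD201- and 621 FPKM in mESC (-1.28), and Smad7, an inhibitory SMAD (-1.82), and the ligand gene Gdf1 (-1.61) were lower too. Of 18 FGF pathway genes, 1 was higher and 6 were lower. The one that was higher was the ligand gene Fgf3 (1.48), while the FGF target genes Etv4 (-1.83), Spry4 (-1.81) and Spry2 (-1.33) were lower.

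Among 13 other tested primed epiblast genes, 1 was higher and 3 were lower. Cdh2, N-cadherin, was higher (3.06) and Tcf15 (-3.27), the de novo methyltransferase gene Dnmt3a (-2.02) and Pou3f1 (-1.64) were lower, so this list did not follow Fgf5 and Otx2. Of 21 other streak and mesoderm genes, 13 were higher and 1 was lower. The retinoic acid hydroxylase gene Cyp26a1 (7.89), the head organizer factor Lhx1 (4.93), the WNT inhibitor Dkk1 (4.80) and the organizer gene Gsc (3.94) changed most. The 1 lower gene was Apela, a ligand of the apelin receptor (-1.26).

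Markers of other cell types moved with the 10 genes, those of visceral and definitive endoderm among them. Of 19 such genes 16 were tested, and all 16 were higher than in mESC, with a median log2 fold change of 2.58. The endoderm factors Sox17 (5.96), Foxa2 (4.13) and Gata4 (3.80) and the endocytic adaptor gene Dab2 (4.41) were among them. The summed level of the 19 markers was 281 to 294 FPKM in mESC and 808 to 989 FPKM in D5-LSKCD201-, and none of them was at 0 in all D5-LSKCD201- libraries. Of 7 neural ectoderm genes tested, 2 were higher (Hesx1 by 3.35 and Otx1 by 1.47) and 2 were lower (Gbx2 by -4.13 and Pax6 by -2.87). Hematopoietic markers were higher for 11 of 14 tested, with a sum over the list of 18.7 to 21.2 FPKM in mESC and 122 to 133 FPKM in D5-LSKCD201-. Endothelial markers were higher for 8 of 12 (64.6 to 69.1 against 165 to 171 FPKM) and stromal markers for 9 of 11 (10.8 to 13.5 against 61.8 to 101 FPKM). Kit and Ly6a, on which the LSK cells were sorted, were among the 11 higher hematopoietic markers. No tested gene of these 3 lists passed as lower, and none was at 0 in all libraries of either group. Of the 15 pluripotency genes 4 were lower and 1 was higher, with a median log2 fold change of -0.84. Sox2 (-2.06), Klf5 (-1.40) and Nr0b1 (-1.40) were lower and Tbx3 (1.06) was higher, and the sum of the list was 1727 to 1762 FPKM in mESC and 857 to 1050 FPKM in D5-LSKCD201-. The part of these cell types in the levels of the 10 genes was not tested.

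**Figure D2:**
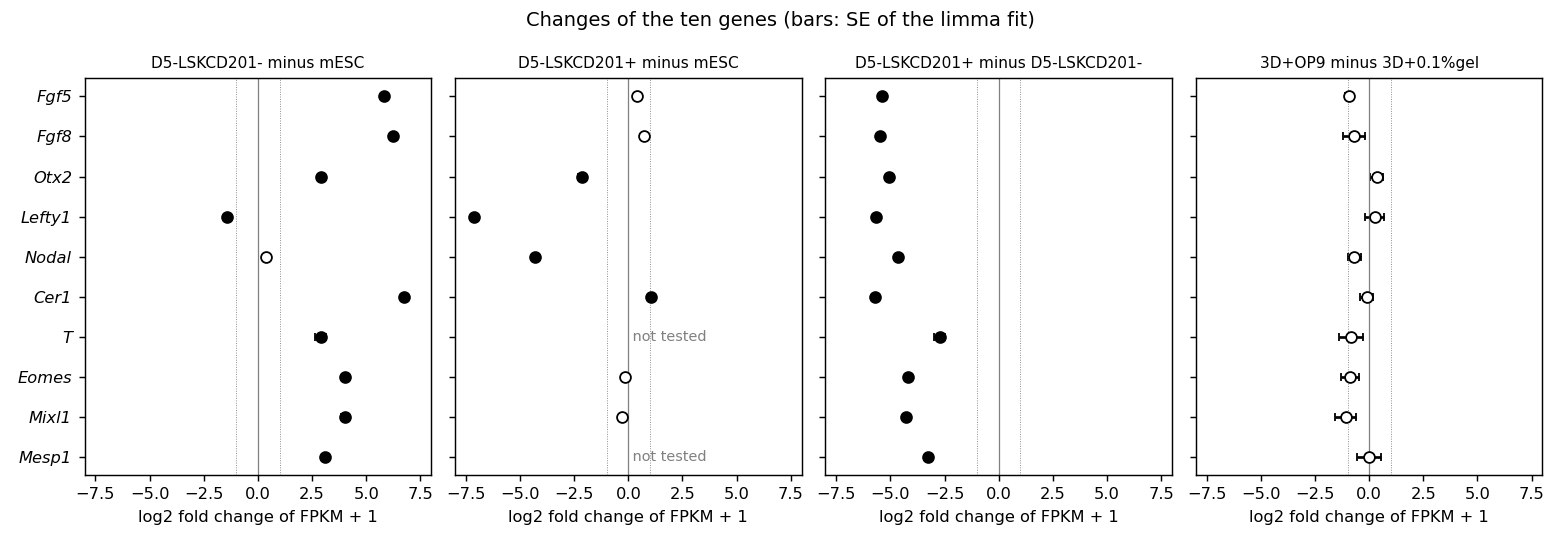
Log2 fold change of FPKM + 1 with its SE for each gene in 4 comparisons, filled where the gene passed both thresholds and open where it did not; dotted lines stand at log2 fold changes of -1 and 1. All 10 genes lie left of -4 or, for Mesp1 and T, at -3.25 and -2.72 in the D5-LSKCD201+ against D5-LSKCD201- panel, and none is filled in the OP9 panel.

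Within the LSK cells of day 5, CD201 split the program. Each of the 10 genes was called lower on the CD201+ side, where 24.7% of the 13691 genes tested were called, 13.9% lower and 10.8% higher. T, Mixl1 and Mesp1 averaged 0.379, 0.464 and 0.258 FPKM in D5-LSKCD201+ and passed the filter only through D5-LSKCD201-, where they were high, so the count and the median are descriptions. The 3 replicates did not overlap for any of the 10, as for 73.6% of all genes. The median log2 fold change was -4.87 for the 10 genes and -0.12 for all genes.

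The FGF ligand genes and Otx2 were at about 1 to 2 FPKM in D5-LSKCD201+. Fgf5 was at 0.818, 0.883 and 1.11 FPKM in the D5-LSKCD201+ libraries, every one of them far under the values of 76.6 FPKM and above given for D5-LSKCD201- (log2 fold change -5.39 ± 0.09, limma adjusted p = 4.50e-08). Fgf8 was at 1.66, 1.72 and 1.26 FPKM (-5.49 ± 0.11). For Otx2 the D5-LSKCD201+ values were 0.929, 1.48 and 2.0 FPKM (-5.07 ± 0.16), and its replicates varied most among these 3 genes.

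Nodal and its inhibitors, which had parted on the way from mESC, were low together here. Nodal was at 0.404, 0.555 and 0.644 FPKM in D5-LSKCD201+ (log2 fold change -4.67 ± 0.10). Lefty1 was at 1.37, 1.81 and 1.59 FPKM (-5.68 ± 0.08) and Lefty2 at 0.884, 1.27 and 1.05 FPKM (-5.43 ± 0.13). Cer1 was at 1.02, 1.26 and 1.44 FPKM (-5.72 ± 0.10). In all 4 genes each D5-LSKCD201+ library was under 2 FPKM, far below D5-LSKCD201-.

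On the log2(FPKM + 1) scale, which compresses the change of genes with lower levels, the streak factors had the smaller values. Eomes was at 0.779, 1.17 and 1.26 FPKM in D5-LSKCD201+ (log2 fold change -4.19 ± 0.12) and Mixl1 at 0.421, 0.618 and 0.354 FPKM (-4.29 ± 0.14). Mesp1 was at 0.0578, 0.283 and 0.433 FPKM (-3.25 ± 0.15). T was at 0.539, 0.202 and 0.395 FPKM (-2.72 ± 0.26), and its highest D5-LSKCD201+ library was below its lowest D5-LSKCD201- library. Without D5-LSKCD201- replicate 2 the log2 fold change of T was -3.02.

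As a share of the D5-LSKCD201- mean, the level in D5-LSKCD201+ was 1.06% for Cer1, 1.17% for Fgf5, 1.21% for Lefty1, 1.36% for Fgf8, 1.41% for Nodal, 1.67% for Mixl1, 1.82% for Otx2, 2.36% for Mesp1, 2.92% for Eomes and 4.50% for T. The share of T ranged from 2.40% to 6.40% over the 3 libraries and that of Mesp1 from 0.528% to 3.96%. The median share was 1.54% for these genes. Over all 8178 genes with at least 5 FPKM in D5-LSKCD201- it was 85.2%, and 3.72% of those genes were under 5%. Core and naive pluripotency genes had a median of 1.06% over 12 genes, close to that of the 10, while endothelial genes had a median of 1870% over 9 genes.

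**Figure D3:**
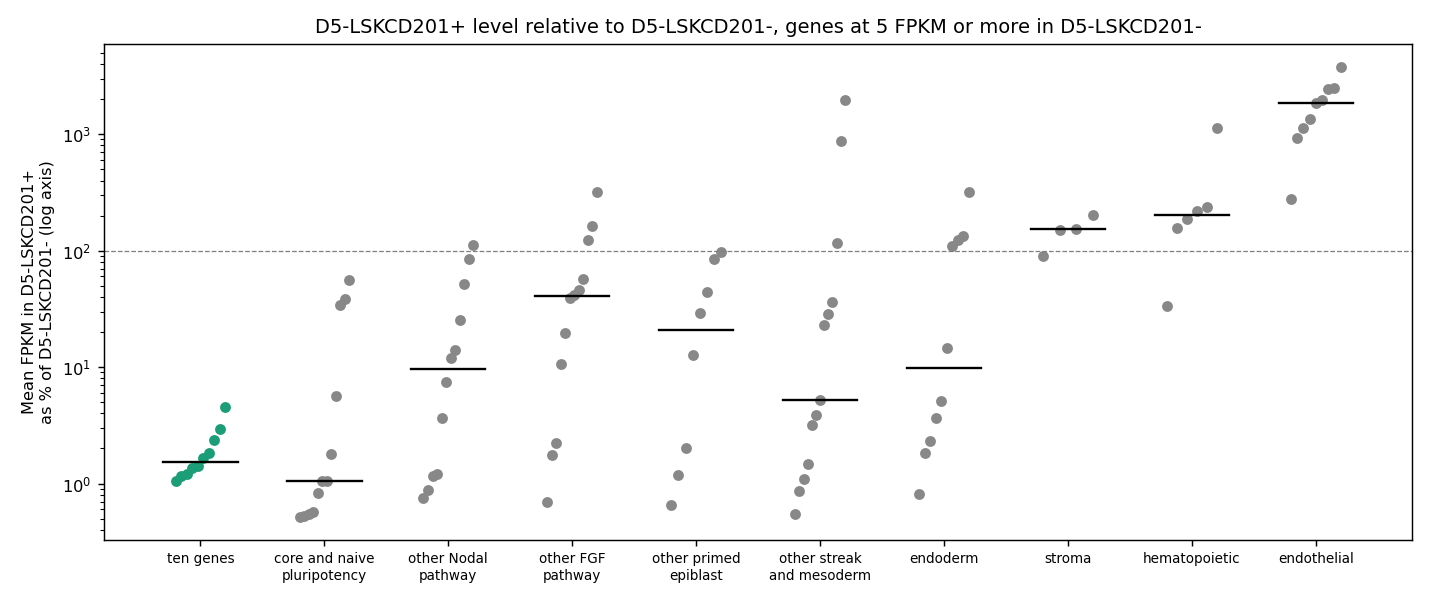
Mean FPKM in D5-LSKCD201+ as a percentage of D5-LSKCD201- on a log axis, 1 point per gene with at least 5 FPKM in D5-LSKCD201-, and the median of each list as a line; the dashed line marks equal levels. The 10 genes span 1.06% to 4.50%, the narrowest range of the lists with 8 genes or more.

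The rest of the Nodal pathway was lower for 10 of 20 tested genes and higher for 1. Tdgf1 (from 255 to 2.25 FPKM, log2 fold change -6.30), Cfc1 (-4.92) and Gdf3 (-4.73), which encodes a ligand related to Nodal, were close to the 10 genes in size. Of 17 FGF genes 8 were lower and 1 was higher, with Fgf4 (-4.48), Fgf15 (-4.03), Fgf17 (-2.86) and the target gene Etv5 (-2.25) changed most. Among 12 other primed epiblast genes 9 were lower and none was higher. Among those lower were Utf1 (-6.69), Sox3 (-3.23) and Dnmt3b (-2.91).

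Of 22 other streak and mesoderm genes, 14 were lower and 3 were higher. Apela (-5.36), the WNT target gene Sp5 (-4.52) and Gsc (-4.18) were lower, whereas Kdr, the VEGF receptor of blood and endothelial precursors, was higher, at 137 FPKM ± 5.6 against 6.95 ± 1.1 (4.12). Neural genes were lower for 3 of 4 tested, among them Hesx1 (-3.50), and 1 was higher, Nes (1.3). Endoderm genes were lower for 10 of 16 and higher for 1. Trh (-6.70), Amn (-3.68), Foxa2 (-3.50) and Foxa1 (-2.90) fell, while Dab2 was higher (1.65) and Sox17 was at 121 FPKM in D5-LSKCD201+ and 98.5 FPKM in D5-LSKCD201- (0.30). The summed level of the 19 endoderm markers was 331 to 342 FPKM in D5-LSKCD201+. Endothelial genes, a list that also holds Kdr, were higher for 12 of 12, and the pluripotency list was lower for 14 of 15 with a median of -3.25. Hematopoietic genes were mixed, with 8 of 15 higher and 3 lower. Procr, the gene of the sort, was higher (3.76), as were Cd34 (3.45), Lyl1 (3.34) and Itga2b (3.27), whereas Gata1 (-1.98), Runx1 (-1.19) and Gfi1b (-1.15) were lower, and the sum of the list was 544 to 555 FPKM in D5-LSKCD201+. Of 12 stromal genes 3 were higher, Col5a2 (1.87), Postn (1.70) and Lum (1.21), and none was lower. The part of these cell types in the changes of the 10 genes was not tested.

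D5-LSKCD201+ was also set against mESC. Both day 5 groups are compared with the same mESC libraries here. Of the 8 genes that passed the filter, 1 was higher (19.5% of the 13441 genes tested) and 3 were lower (18.1%). Lefty1 (log2 fold change -7.12 ± 0.06), Nodal (-4.31 ± 0.08) and Otx2 (-2.16 ± 0.15), the 3 genes over 5 FPKM in every mESC library, were lower. Cer1 was higher by 1.03 ± 0.09, just over the threshold, and by 0.96 without D5-LSKCD201+ replicate 3. It passed the filter through the D5-LSKCD201+ libraries, so its call is a description. Fgf8 (0.73 ± 0.13) and Fgf5 (0.42 ± 0.11) did not reach the fold threshold, although their replicates did not overlap, as for 86.1% of all genes. With a pseudocount of 0.1 the values were 2.77 for Cer1, 1.41 for Fgf8 (limma adjusted p = 0.00158), which was then called, and 0.95 for Fgf5. Eomes (-0.15 ± 0.12, limma adjusted p = 0.242) and Mixl1 (-0.29 ± 0.11) were not called and their replicates overlapped. T and Mesp1 were too low to be tested, and their replicates overlapped too.

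In FL-LSKCD201+ and BM-LSKCD201+, cells sorted from mice, nearly all of these genes were at the floor. T was listed at 0 in all 6 libraries. Mesp1 was at 0 in 5 of them and at 0.0684 FPKM in FL-LSKCD201+ replicate 1. Nodal was at 0.0866, 0.0191 and 0.0472 FPKM in FL-LSKCD201+ and at 0, 0 and 0.0163 FPKM in BM-LSKCD201+. BM-LSKCD201+ replicate 1 listed 9 of the 10 genes at 0, while each of 10 housekeeping genes had a value above 0 in every library.

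Lefty1 was the exception. It was at 2.96, 2.23 and 2.29 FPKM in FL-LSKCD201+ and at 6.14, 4.25 and 4.30 FPKM in BM-LSKCD201+, above the 1.37 to 1.81 FPKM of D5-LSKCD201+ in every library. D5-LSKCD201+ had less of it than BM-LSKCD201+ (log2 fold change -1.17 ± 0.14, limma adjusted p = 0.000139), and under the fold threshold against FL-LSKCD201+ (-0.43 ± 0.12, limma adjusted p = 0.014). With quantile normalization the value against BM-LSKCD201+ was -0.76, short of the threshold, and that against FL-LSKCD201+ was -0.19 (limma adjusted p = 0.173). Lefty2 did not share this level, with 0.352, 0.193 and 0.260 FPKM in FL-LSKCD201+ and 0, 0.168 and 0.297 FPKM in BM-LSKCD201+. Eomes was detected in 2 of 3 BM-LSKCD201+ libraries, at 0.700 and 0.458 FPKM, and in 1 FL-LSKCD201+ library.

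Of the 5 genes that could be tested in either comparison, 4 had a higher level in D5-LSKCD201+ than FL-LSKCD201+ had (15.1% of 13627 genes were higher and 34.7% called in either direction). Against BM-LSKCD201+ it was 3 (17.5% of 13775 genes higher, 44.7% called). Fgf8 had log2 fold changes of 1.13 ± 0.12 and 1.31 ± 0.10, Otx2 of 1.09 ± 0.17 and 1.23 ± 0.16 and Cer1 of 1.05 ± 0.10 and 1.04 ± 0.11. Eomes was at 1.02 ± 0.11 against FL-LSKCD201+ and 0.61 ± 0.20 against BM-LSKCD201+, where it was 0.39 without BM-LSKCD201+ replicate 1, the library that listed it at 0. With a pseudocount of 0.1 the values against FL-LSKCD201+ and BM-LSKCD201+ were 2.74 and 3.77 for Fgf8, 2.69 and 3.54 for Otx2, 2.92 and 2.95 for Cer1 and 3.33 and 1.70 for Eomes, with the same number of genes called. With a filter at a mean of 1 FPKM none of them was tested and 0 were higher in either comparison. None was lower against FL-LSKCD201+, where 19.6% of all genes were, and Lefty1 was lower against BM-LSKCD201+, where 27.2% were. These genes passed the filter through the D5-LSKCD201+ libraries, or for Lefty1 through all groups, and both comparisons share those libraries. The counts of higher genes are therefore descriptions. Without D5-LSKCD201+ replicate 3, Otx2 (0.94) and Cer1 (0.99) fell short against FL-LSKCD201+ and Eomes was under the filter, which left 1 gene, Fgf8. Against BM-LSKCD201+, Cer1 was at 0.98 without that library and at 0.98 without BM-LSKCD201+ replicate 1.

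In total cells on day 5, the effect of the OP9 stroma on the program was examined against gelatin. None of the 10 genes passed both thresholds, where 2.62% of the 12958 genes tested did (2.11% higher, 0.509% lower). With limma, 2 of the 10 had an unadjusted p under 0.05, Fgf5 and Nodal, as did 22.9% of all genes tested. The median log2 fold change was -0.69 for the 10 genes and 0.01 for all genes. Replicates did not overlap between the groups for 2 of the 10, Fgf5 and Eomes, and for 28.7% of all genes.

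Fgf5 came closest to a call. It was at 17.7, 15.8 and 12.03 FPKM in 3D+OP9 and at 27.4, 34.1 and 28.8 FPKM in 3D+0.1%gel. Every stroma library was below every gelatin library, with a log2 fold change of -0.95 ± 0.15 (limma adjusted p = 0.011), just short of the fold threshold. It passed, at -1.07 and -1.01, without replicate 1 of 3D+OP9 and without replicate 1 of 3D+0.1%gel. Without replicate 2 of 3D+0.1%gel it was -0.86 with an adjusted p of 0.0629. Fgf8 was at 91.1, 79.4 and 27.6 FPKM in 3D+OP9 and 157, 99.5 and 56.0 FPKM in 3D+0.1%gel, and the groups overlapped (-0.70 ± 0.50). Otx2 was at 31.6, 28.7 and 67.0 FPKM in 3D+OP9 and 31.4, 31.3 and 30.1 FPKM in 3D+0.1%gel. The high value was replicate 3, and the log2 fold change of 0.34 ± 0.28 was -0.036 without it.

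Nodal was at 32.3, 30.0 and 18.7 FPKM in 3D+OP9 and 54.2, 50.8 and 28.1 FPKM in 3D+0.1%gel (log2 fold change -0.68 ± 0.28, limma adjusted p = 0.21). Replicate 3 was the lowest in both groups, and with it the groups overlapped. Lefty1 was at 24.8, 23.6 and 30.4 FPKM in 3D+OP9 and at 37.6, 28.6 and 9.19 FPKM in 3D+0.1%gel. Its log2 fold change of 0.26 ± 0.44 became -0.32 without 3D+0.1%gel replicate 3. Lefty2 was at 21.2, 23.0 and 29.1 FPKM in 3D+OP9 and 11.9, 13.0 and 7.36 FPKM in 3D+0.1%gel, without overlap, and was called higher (1.14 ± 0.21, limma adjusted p = 0.0202). Cer1 was nearly absent from both, at 1.52, 1.21 and 0.13 FPKM in 3D+OP9 and 1.04, 0.72 and 1.27 FPKM in 3D+0.1%gel (-0.11 ± 0.30, and 0.24 without 3D+OP9 replicate 3).

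By its mean, T was the most abundant of the 10 in these cells. It was at 164, 151 and 35.3 FPKM in 3D+OP9 and at 196, 226 and 117 FPKM in 3D+0.1%gel, with overlap (log2 fold change -0.84 ± 0.56, limma adjusted p = 0.426). Eomes was at 52.5, 55.2 and 16.6 FPKM in 3D+OP9 and at 77.4, 74.3 and 57.7 FPKM in 3D+0.1%gel, without overlap (-0.90 ± 0.42, limma adjusted p = 0.248). Mixl1 was at 17.9, 17.5 and 4.38 FPKM in 3D+OP9 and 30.1, 31.3 and 16.8 FPKM in 3D+0.1%gel (-1.08 ± 0.49, limma adjusted p = 0.24). Here the fold threshold was met but not the p. With the replicate number fitted as a block Mixl1 was called lower (limma adjusted p = 0.0297), though those numbers did not pair the libraries. Mesp1 was at 34.4, 29.2 and 9.90 FPKM in 3D+OP9 and 43.2, 20.9 and 10.9 FPKM in 3D+0.1%gel, with overlap (log2 fold change 0.00 ± 0.56). Leaving out 1 library moved that value to between -0.46 (without 3D+0.1%gel replicate 3) and 0.53 (without 3D+OP9 replicate 3), and no direction can be given.

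Replicate 3 of 3D+OP9 was the lowest of its group in 8 of the 10 genes and the highest in Otx2 and Lefty1, and replicate 3 of 3D+0.1%gel was also the lowest in 8. Without 3D+OP9 replicate 3 the log2 fold change was -0.80 for Fgf5, -0.17 for Fgf8, -0.44 for Nodal, -0.13 for T, -0.36 for Eomes and -0.48 for Mixl1, and none of the 10 passed. Without 3D+0.1%gel replicate 3 it was -0.98 for Fgf5, -1.08 for Fgf8, -0.97 for Nodal, -1.12 for T, -1.03 for Eomes and -1.36 for Mixl1, and again none passed. Without both, values were -0.83 for Fgf5, -0.55 for Fgf8, -0.73 for Nodal, -0.41 for T, -0.49 for Eomes and -0.76 for Mixl1. In that comparison, chosen after seeing the data, the limma adjusted p was under 0.05 for Fgf5 (0.00716), Nodal (0.00292), T (0.0332), Eomes (0.00844) and Mixl1 (0.0024), all short of the fold threshold. None of the 10 passed both thresholds there, where 459 of all genes tested did. The share of all genes under that adjusted p alone was not counted, so these values are descriptions. The summed level of the 10 genes was 468, 432 and 222 FPKM in 3D+OP9 and 655, 597 and 356 FPKM in 3D+0.1%gel. In 3D+OP9, the other streak and mesoderm genes summed to 533.5, 540.2 and 258.8 FPKM. The other primed epiblast genes summed to 379.2, 374.6 and 754.7 FPKM, and the pluripotency genes to 788.1, 773.4 and 1122 FPKM. Hematopoietic (95.19, 104.5 and 90.28 FPKM) and endothelial sums (151.3, 177.5 and 145.6 FPKM) differed less. In 3D+0.1%gel the other streak and mesoderm genes summed to 536.2, 376.4 and 287.9 FPKM and the other primed epiblast genes to 558.1, 663.6 and 682.8 FPKM. The pluripotency genes summed to 963.3, 1011 and 936.8 FPKM there, above replicates 1 and 2 of 3D+OP9. The part of these genes in the values of replicate 3 was not tested.

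**Figure D4:**
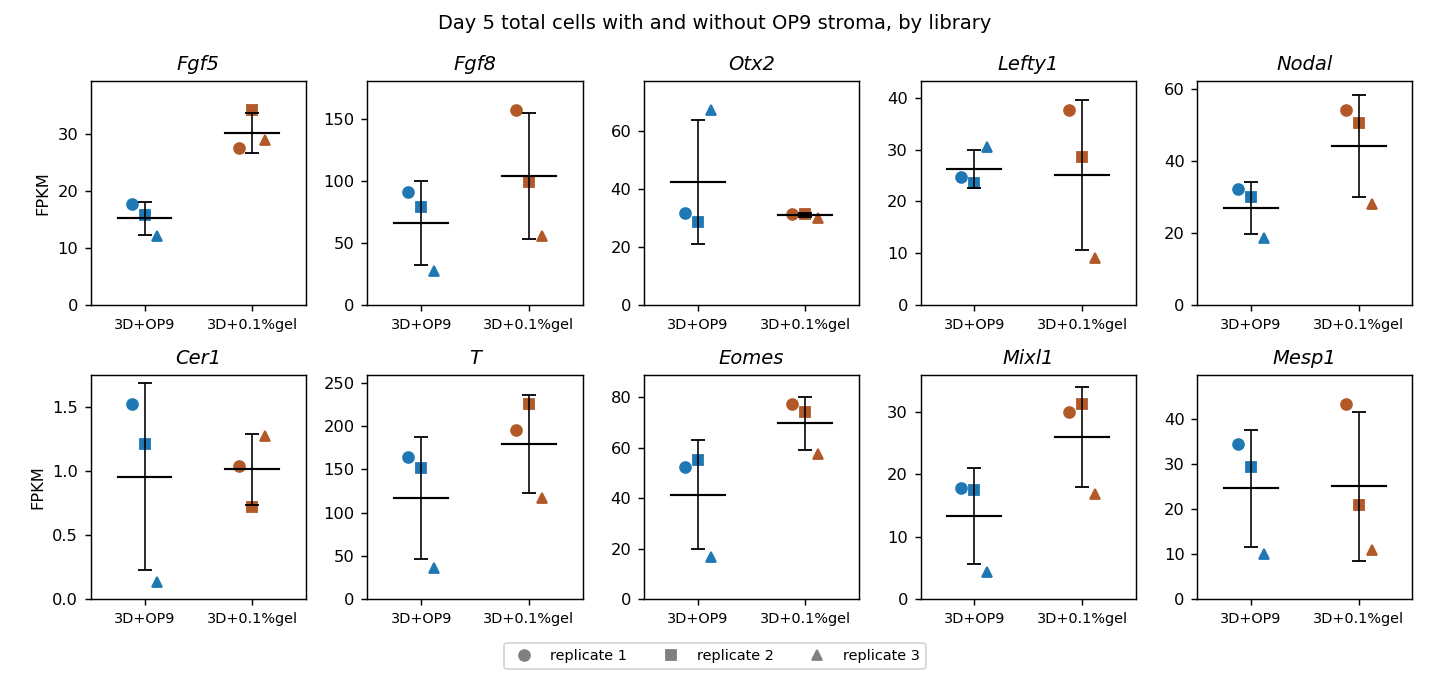
FPKM of each gene in day 5 total cells with OP9 stroma (blue) and on gelatin (brown), 1 symbol per replicate, with the mean and SD of 3 libraries in black; each panel has its own axis from 0. Replicate 3 (triangles) is the lowest point of 3D+OP9 in 8 of the 10 genes, and Fgf5 and Eomes are the genes without overlap.

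Few genes of the related lists passed in this comparison. The median log2 fold change was -0.0059 for the Nodal pathway, -0.027 for the FGF pathway, -0.41 for the other primed epiblast genes and 0.078 for the other streak and mesoderm genes. Of 19 Nodal pathway genes 1 was higher, Lefty2, and none was lower. None of 19 FGF pathway genes, 14 other primed epiblast genes, 18 endoderm genes and 8 neural genes passed. Of 26 other streak and mesoderm genes 1 was higher, Kdr, at 23.5 FPKM against 9.24 (1.28). The pluripotency list was higher with OP9 for 8 of 15 genes, led by Esrrb (3.42), Zfp42 (2.67), Nr0b1 (2.51) and Fbxo15 (2.39), all genes of the naive state. The core factors of the same list had values in the other direction, short of the fold threshold, with log2 fold changes of -0.98 for Nanog (limma adjusted p = 0.0197), -0.71 for Pou5f1 (0.0446) and -0.52 for Sox2 (0.386). Endothelial genes, a list that also holds Kdr, were higher for 10 of 12 and hematopoietic genes for 12 of 15. Stromal genes were higher for 5 of 12, among them Postn (2.34), Col1a2 (1.56) and Col3a1 (1.43), and the sum of the 13 listed was 84.5 to 96.8 FPKM with OP9 and 48.1 to 59.0 FPKM on gelatin. OP9 cells were present in 1 group only, and their part in these values was not tested.

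The 10 genes were also read against each other within each library, which does not need the 2 tables to share a scale between libraries. The ratio of T to Eomes was 0.146 to 0.273 in D5-LSKCD201-, against 2.13 to 3.13 in 3D+OP9, the culture from which they were sorted, and 2.02 to 3.04 in 3D+0.1%gel. The ratio of Cer1 to Nodal was 2.84 to 3.46 in D5-LSKCD201-, 2.23 to 2.52 in D5-LSKCD201+, 0.00695 to 0.0471 in 3D+OP9, 0.0142 to 0.0452 in 3D+0.1%gel and 0.00211 to 0.00392 in mESC. In both ratios the sorted day 5 cells and the total cells did not overlap. The ratio of Lefty1 to Nodal was 11.7 to 12.8 in mESC, 3.33 to 3.52 in D5-LSKCD201-, 2.47 to 3.40 in D5-LSKCD201+, 0.767 to 1.63 in 3D+OP9 and 0.327 to 0.693 in 3D+0.1%gel. Otx2 exceeded T by 7.77 to 16.9 times in D5-LSKCD201-, whereas T exceeded Otx2 in 5 of 6 coculture libraries.

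Ranks among the 17493 genes with values in both tables gave the same order of differences. Cer1 stood at percentile 95.1 in D5-LSKCD201- and at 31.1 in 3D+OP9 and 35.9 in 3D+0.1%gel. T stood at percentile 63.6 in D5-LSKCD201- and at 94.0 and 97.6 in the total cells. Nodal stood at 85.3 in D5-LSKCD201-, 82.4 in 3D+OP9 and 88.6 in 3D+0.1%gel. Eomes stood at 84.9, 85.9 and 93.5, with a range of 74.4 to 91.9 over the 3D+OP9 libraries. Whether the tables were made with the same annotation and settings is not given in the sources used here, and the part of this in the ratios and ranks was not tested.

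**Figure D5:**
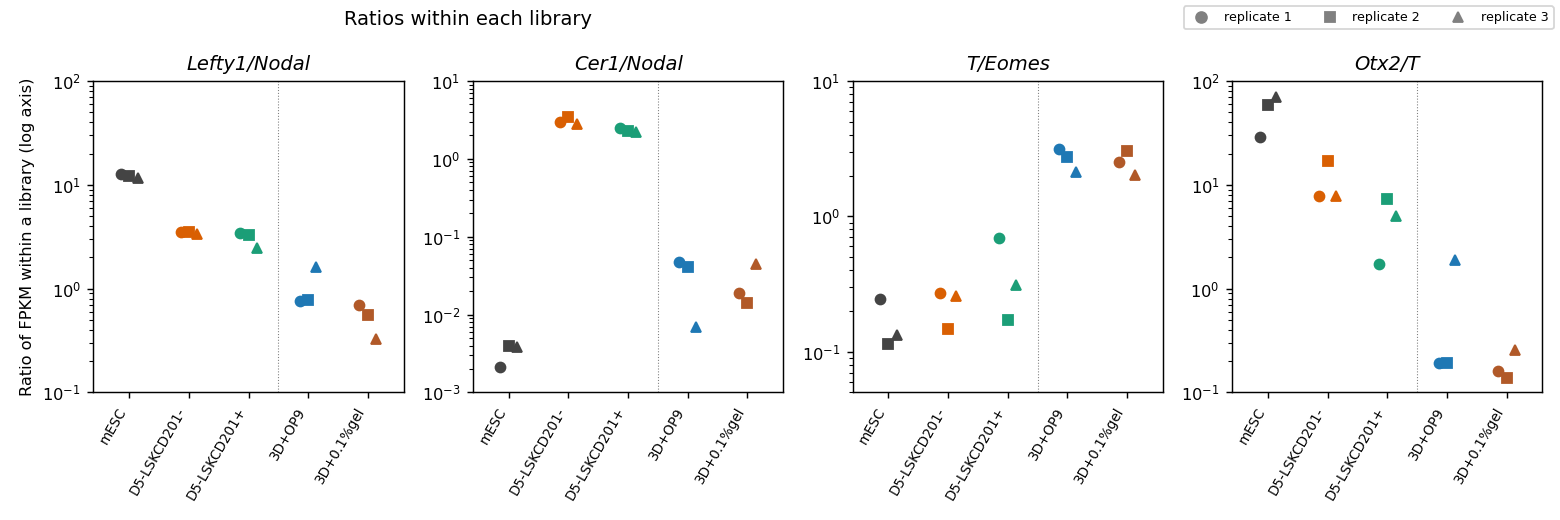
Ratio of the FPKM of gene pairs within each library on log axes, 1 symbol per replicate, for mESC, both D5-LSK groups and, right of the dotted line, the separately normalized coculture libraries. T/Eomes is below 1 in the sorted groups and above 2 in the total cells, and Cer1/Nodal is above 2 only in the 2 D5-LSK groups.

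Over the 15 sorted-cell libraries the pairs of the 10 genes had Pearson correlations of log2(FPKM + 1) from 0.414 to 0.997, with a median of 0.933. The libraries share 5 groups, so these values mostly reflect group levels. The genes most alike to each member among 14457 ranked genes were Fgf8, Pga5 and Cer1 for Fgf5 (r from 0.9962 to 0.9973), Fgf5, Rgs5 and Cer1 for Fgf8, and Krt8, Hkdc1 and Fgf5 for Cer1. For Mixl1 they were Pga5, Grin1 and Wnt3, for Mesp1 Pga5, Grin1 and Mixl1, and for Eomes Lad1, Msx2 and Pga5. Irs4 and Nog were among those most like T. Otx2 was most like Ppp1r14c, Vrtn and Elf3. Nodal was most like Cpsf4l, Morc1 and Zp3, and Lefty1 was most like Hsf2bp, Xrcc5 and Dnd1, with no other member among the 3.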

How the data were processed

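Total RNA from 21 samples was sequenced by the study on an Illumina HiSeq X. Per its methods, the authors aligned reads to GRCm38 with HISAT2 2.0.5, assembled and quantified with StringTie 1.3.3 and tested with Cuffdiff 1.3.0 (versions from the submitters' processing notes, which also name mm9 with no role). The deposited values were FPKM per gene and library. The coculture table lists 22899 genes, 3578 of them blank, with FPKM sums of 483263 to 508307 per library. There are 27968 genes for the sorted cells, with sums of 508622 to 620332, whose starts count from 0 and were raised by 1. Members and gene lists were chosen with earlier results of these data known.

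FPKM plus 1 was taken to log2. Where the 6 libraries compared averaged 0.5 FPKM or more, the gene was tested with limma 3.58.1 (trend, two-sided) in R 4.3.3, with Benjamini-Hochberg adjustment over all genes tested, in 6 comparisons. The smallest exact permutation p for 3 against 3 libraries is 0.1. Besides the 10 members, named genes were the 4 with the largest changes per list among those called, the 3 genes most like each member, and Lefty2, except for items that are not reported here. Tdgf1 and Apela against mESC, Sox17, Dab2, Gata1, Runx1 and Gfi1b between the D5-LSK groups, Nanog, Pou5f1 and Sox2 in the coculture, and Ptprc, Kit and Ly6a were named after their values were seen. On simulated data with 200 genes changed by a log2 fold of 2, 94.5% were recovered for 3D+OP9 against 3D+0.1%gel and 95% for D5-LSKCD201+ against D5-LSKCD201-. The changed genes were drawn from those with a mean log2(FPKM + 1) above 2, and the noise was independent between genes. Recovery of smaller changes, such as those of the 10 genes between 3D+OP9 and 3D+0.1%gel, was not simulated. As alternatives, each library was left out in turn, the replicate number was added as a block, the prior variance was held constant, the libraries were quantile normalized, the pseudocount was set to 0.1, the filter was dropped or raised to 1 FPKM, the fold threshold was dropped, and the 5 sorted-cell groups were fitted together. Averaging the closest replicates and leaving out both replicates 3 of the coculture were chosen after seeing the data. RefSeq promoters and GENCODE M21 transcripts served for sequences. Python 3.11.15 with matplotlib 3.10.9 drew the figures.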

Additional observations from a re-analysis of the deposited data

Results flagged for a closer look

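For all 10 genes the change from mESC differed between the day 5 LSK groups. Between those groups, 24.7% of the 13691 genes tested were called. T and Mesp1 had no tested change from mESC in D5-LSKCD201+. With Mixl1, they passed the filter between the day 5 groups only through D5-LSKCD201-, so the values below are descriptions. The difference of the changes, D5-LSKCD201+ minus D5-LSKCD201-, was tested with limma and equals the direct contrast of the groups, since both were set against the same mESC libraries. On the log2 scale it was -5.39 for Fgf5, -5.49 for Fgf8 and -5.07 for Otx2. It was -5.68 for Lefty1, -4.67 for Nodal and -5.72 for Cer1. Among the streak factors it was -2.72 for T, -4.19 for Eomes, -4.29 for Mixl1 and -3.25 for Mesp1. In this step, groups of 3 libraries were not screened for single outlying values, and libraries that stood apart are described above.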

How the results depend on the processing

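Between D5-LSKCD201+ and D5-LSKCD201-, and between D5-LSKCD201- and mESC, the direction and call of each of the 10 genes were the same in all 140 alternative values per comparison that kept both thresholds. By the adjusted p alone, Nodal was also higher in D5-LSKCD201- than in mESC, which made 9 genes. Quantile normalization moved the median of all genes between the D5-LSK groups from -0.12 to -0.0063, between D5-LSKCD201- and mESC from 0.046 to -0.10, and for D5-LSKCD201+ from -0.16 to -0.045 against FL-LSKCD201+ and from -0.23 to -0.00048 against BM-LSKCD201+. The replicate numbers did not pair the libraries (for 3D+OP9 and 3D+0.1%gel, the deviations of same-numbered libraries had r = 0.182, 0.0724 and 0.291). With the replicate number as a block, 1 gene was lower with OP9, Mixl1 at -1.08 (limma adjusted p = 0.0297), and no other call of the 10 genes changed in any comparison.

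With OP9, 1 gene was lower by the adjusted p alone (Fgf5) and with the closest replicates averaged (Fgf5, -1.03), and 0 to 1 when each library was left out. Over all genes, 531 passed with a pseudocount of 0.1, 891 by the adjusted p alone and 209 to 444 without each library (the lowest without 3D+0.1%gel replicate 2), against 339. The direction of 4 genes turned. Leaving out each library moved Mesp1 from -0.46 (without 3D+0.1%gel replicate 3) to 0.53, with -0.32 and -0.20 without 3D+OP9 replicates 1 and 2 and -0.018 without 3D+0.1%gel replicate 2. It moved Otx2 from -0.036 (without 3D+OP9 replicate 3) to 0.56, Lefty1 from -0.32 (without 3D+0.1%gel replicate 3) to 0.64, and Cer1 from -0.34 to 0.24 (without 3D+OP9 replicate 3). With the closest replicates averaged Mesp1 was at -0.26. Without both replicates 3, Otx2 was at -0.055, Cer1 at 0.33 and Lefty1 at -0.43. The cause was not tested.

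In D5-LSKCD201+, 2 genes were higher than in mESC with a pseudocount of 0.1, 3 by the adjusted p alone, 0 with a filter at 1 FPKM and 0 to 1 without each library. Against FL-LSKCD201+, 0 were higher with that filter, 1 was lower by the adjusted p alone, and 1 to 4 were higher without each library. Against BM-LSKCD201+, 0 were higher with that filter and 0 lower with quantile normalization. The stricter filter tests fewer genes. By the adjusted p alone, all genes passing numbered 9349 between the D5-LSK groups, 7418 for D5-LSKCD201- and 11496 for D5-LSKCD201+ against mESC, 9823 against FL-LSKCD201+ and 11486 against BM-LSKCD201+. Depth is unknown, so values near 0 FPKM have no error beyond their spread.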
